A study of Homo sapiens with 48 samples.

Results

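SPRY1, SPRY2 and SPRY4 encode Sprouty proteins, SPRED1, SPRED2 and SPRED3 encode their Spred relatives, and ETV1, ETV4 and ETV5 encode the PEA3 subfamily of ETS transcription factors. These 9 genes were taken by symbol, as feedback inhibitors of ERK signalling and ERK-driven ETS factors, from the 58870 genes counted in 48 libraries. RNA was sequenced from 3 established uveal melanoma cell lines, 92-1, MEL202 and MP41, whose genotype is labelled WT. Each line received either DMSO or FHT-1015, a compound that blocks both SMARCA4 and SMARCA2, the ATPases that power BAF chromatin remodellers, for 4 or 24 h. In a separate set of libraries, 92-1 cells received either DMSO or IDE196, which inhibits protein kinase C (PKC), for 4 or 24 h. The 16 groups held 3 replicates each. The replicates are labelled biological, but whether they were separate cultures, and the doses, are not given in the sources used here, so p-values measure the spread between these samples. The 12 libraries of 1 line and 1 drug, DMSO included, are called an experiment.

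Receptor tyrosine kinases activate RAS, RAF, MEK and ERK in turn, and ERK induces transcription of its own restraints. Sprouty proteins act between the receptors and RAF, and Spred proteins bring the RAS GTPase-activating protein NF1 to the membrane. ETV1, ETV4 and ETV5 are held down by the repressor CIC (capicua), which ERK signalling inactivates, and their proteins are degraded through the COP1 and DET1 ubiquitin ligase. Uveal melanomas commonly carry activating mutations of the G protein genes GNAQ or GNA11, which reach the ERK cascade through PKC.

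Libraries held between 11394088 and 32317711 reads in genes. All 9 genes were above 3 reads in every library and passed the filter on low counts in every experiment, although SPRED3 had only 10 to 173 reads and SPRY1 had as few as 10. The 6 melanocyte lineage markers checked were all detected in DMSO, with a summed level of 4480 to 12200 CPM (reads of a gene scaled to a common library total), most of it PMEL, while DCT was as low as 0.419 CPM in MEL202. Markers of fibroblasts summed to at most 42.0 CPM, of epithelium to 3.62, of leukocytes to 1.12 and of endothelium to 0.476. The biological coefficient of variation, edgeR's common estimate of the spread between replicates, was 0.117 in the 92-1 FHT-1015 experiment, 0.112 in the IDE196 experiment, 0.217 in MP41 and 0.294 in MEL202. Levels below are TMM-normalised CPM on a common scale of the 48 libraries. They are relative to the library, and in bulk RNA a lower level per cell and fewer cells with the transcript cannot be told apart.

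SPRY1, SPRED3 and ETV1 were the members that rose in all 3 lines after 24 h of FHT-1015, so bases upstream of an annotated start of each are shown. The RefSeq promoter table (GRCh38.p14) held windows of 300 bases, from 250 before to 50 after a start, for 7 of the 9 genes (17 windows). ETV4 and ETV5 were not among them. Upper-case letters mark matches, on either strand, to the CIC octamers TGAATGAA and TGAATGGA, the ETS motif CCGGAAGT, the AP-1 motif TGANTCA, the CRE motif TGACGTCA and the E-box CACGTG.
SPRY1, chr4:123396545-123396794, plus strand: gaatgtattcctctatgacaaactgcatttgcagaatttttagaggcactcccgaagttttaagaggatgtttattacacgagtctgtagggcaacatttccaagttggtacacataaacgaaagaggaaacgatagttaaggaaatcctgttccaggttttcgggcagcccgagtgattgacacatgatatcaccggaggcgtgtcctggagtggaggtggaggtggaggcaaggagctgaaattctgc
ETV1, chr7:13991426-13991675, minus strand: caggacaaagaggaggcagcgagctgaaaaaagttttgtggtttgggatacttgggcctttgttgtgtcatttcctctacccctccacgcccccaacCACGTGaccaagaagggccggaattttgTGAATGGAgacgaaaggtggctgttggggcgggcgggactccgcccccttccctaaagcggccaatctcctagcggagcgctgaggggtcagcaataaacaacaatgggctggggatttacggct
SPRED3, chr19:38389541-38389611, plus strand: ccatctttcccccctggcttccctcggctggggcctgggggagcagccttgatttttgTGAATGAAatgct
The 250 bases before the SPRY1 start at 123396795 held none of these letters. Counted from the start (negative is upstream) to the first base of the match, ETV1 held TGAATGGA at -125 and CACGTG at -153 of its start at 13991425, and nothing in its other 5 windows. The SPRED3 stretch, the first 71 bases of its window, held TGAATGAA at -192 of a start at 38389791, which lies inside the gene, and the same window held TGACTCA at -60. Of the 250 bases before that start, 126 are exonic, and the other SPRED3 window, of the start at 38388697, held no match. SPRED2 was the only other member of the 7 with matches: TGACTCA at -6 and TGAATCA at 34 of a start at 65366778 on chromosome 2. Among all 35116 windows of the table, TGAATGAA occurred in 1.655%, TGAATGGA in 1.031%, the AP-1 motif in 7.709%, CACGTG in 7.256%, CCGGAAGT in 4.138% and TGACGTCA in 1.848%. Of the members' 17 windows, TGAATGAA, TGAATGGA and CACGTG were in 1 each, the AP-1 motif in 2, and CCGGAAGT and TGACGTCA in none. These matches describe the letters only.

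In DMSO, the order of the genes was compared per kilobase of exon. ETV4, on chromosome 17 (43527844 to 43579620), stood highest in both 92-1 sets, with a median over 6 libraries of 27.7 CPM per kb in the FHT-1015 experiment (range 23.7 to 28.4) and 39.5 in the IDE196 experiment (38.2 to 42.6). Those 2 sets of untreated 92-1 libraries did not overlap for 3 of the 9 genes, where 37.3% of the 14700 genes tested in both experiments did not: ETV4, SPRED1 (4.44 to 5.53 CPM per kb in the FHT-1015 experiment and 7.39 to 12.8 in the IDE196 experiment) and SPRY4 (12.7 to 16.2 and 16.6 to 26.5). Each drug was compared with its own DMSO. ETV5, on chromosome 3 (186046308 to 186110318), was highest in MEL202 at 22.3 CPM per kb and in MP41 at 45.6, but its range overlapped that of the next gene in both (SPRY4 in MEL202, SPRY2 in MP41). SPRY1 and SPRED3 were at the bottom of all 4 sets, and neither overlapped the gene above it, except that SPRY1 overlapped SPRED1 in MP41. SPRED3 had a median of 0.267 to 0.335 CPM per kb and SPRY1 of 0.941 to 4.40. Between the 3 lines the DMSO level differed for 8 of the 9 genes (edgeR F-test over 36 libraries, adjusted p under 0.05), where 77.9% of all genes tested did. SPRED3 was the exception (adjusted p = 0.085). Of the 8 genes that differed, MP41 had the highest median of the lines for SPRY1, SPRY2, SPRY4, SPRED2, ETV1 and ETV5. Line and experiment cannot be told apart. Without replicate 3 of 92-1 DMSO at 4 h, SPRED3 also differed (adjusted p = 0.0224).

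**Figure D1:**
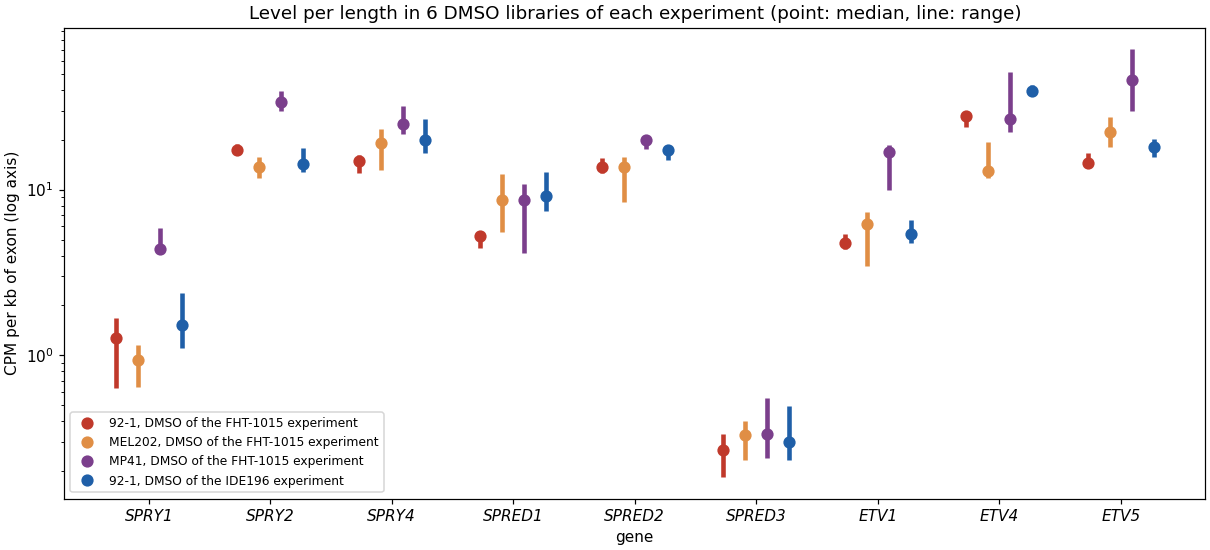
Level of each gene per kilobase of exon in the DMSO libraries (CPM per kb, log axis), with the median as a point and the range over 6 libraries as a line, coloured by experiment. SPRED3 and SPRY1 sit lowest, and ETV4 is the highest gene in both 92-1 sets at 27.7 and 39.5 CPM per kb.

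The DMSO libraries of the 2 times were compared first. At 24 h against 4 h, none of the 9 was called in 92-1 (FHT-1015 experiment), MEL202 or the IDE196 experiment, where 0.344%, 0.0% and 0.266% of genes were called. At an unadjusted p under 0.05 there were 0, 0 and 3 members in those sets, where 8.81%, 2.07% and 14.3% of genes were under it, and DESeq2 called none of them either. In MP41, 1 of 9 was called, against 2.59% of genes (5 with DESeq2, and 5 in edgeR without DMSO replicate 3 at 24 h): ETV5 rose from 191, 199 and 172 CPM at 4 h to 354, 408 and 330 at 24 h (log2 0.88, SE 0.12, adjusted p = 0.0070). No member was called there without DMSO replicate 1 or 3 at 4 h, or in the DMSO libraries alone. At an unadjusted p under 0.05 in edgeR there were 6 of 9 members in MP41, and 4631 of 15543 genes. SPRY2 (log2 -0.32), SPRED1 (-0.91) and ETV1 (-0.56) were lower at 24 h. SPRED3 (0.77), ETV4 (0.56) and ETV5 were higher. Drug effects below are within a time point.

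At 4 h, FHT-1015 in 92-1 moved 6 of the 9 genes past the threshold of an adjusted p under 0.05, against 29.5% of the 15685 genes tested. SPRY1, SPRY2, SPRED1 and ETV1 rose, and SPRED2 and ETV5 fell. In MEL202 the same time gave 2 of 9 (SPRY1 and SPRY2, both higher), against 0.679% of genes, and in MP41 1 of 9 (SPRY4, lower), against 0.225%. By 24 h the counts were 5 of 9 in 92-1 (60.6% of genes), 3 of 9 in MEL202 (18.8%) and 4 of 9 in MP41 (36.1%). The 3 genes that rose in each line at 24 h were SPRY1, SPRED3 and ETV1. Of the 13677 genes tested in all 3 lines, 5.04% rose in each. The counts of 5 of 9 in 92-1 and 4 of 9 in MP41 are near the shares of all genes. The median log2 fold change of the 9 genes at 24 h was 0.19 in 92-1, 0.35 in MEL202 and -0.077 in MP41, beside -0.00082, -0.0055 and 0.065 over all genes.

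Calls under PKC inhibition were nearly all downward. IDE196 lowered 7 of the 9 genes at 4 h, where 9.3% of genes fell and 16.2% were called in either direction. At 24 h all 9 were called, 8 lower and SPRED3 higher, where 58.1% of genes were called and 29.4% fell. The median log2 fold change of the 9 genes was -0.92 at 4 h and -2.94 at 24 h, beside 0.014 and 0.029 over all genes tested.

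The 3 treated and 3 DMSO libraries did not overlap for 6 of 9 genes at 4 h (43.7% of all genes tested) and 5 of 9 at 24 h (65.0%) with FHT-1015 in 92-1. The same counts were 4 (9.45%) and 5 (52.0%) in MEL202, 4 (20.9%) and 5 (42.3%) in MP41, and 7 (30.1%) and 9 (65.0%) with IDE196. The size of the FHT-1015 effect differed among the 3 lines, in a fit of 36 libraries, for 1 of 9 genes at 4 h (1.38% of genes) and 5 of 9 at 24 h (12%): SPRY1, SPRY2, SPRED2, SPRED3 and ETV4. A change of the drug effect between the times was called for 5 of 9 genes in 92-1 with FHT-1015 (45.5% of genes), 3 of 9 in MEL202 (6.89%), 5 of 9 in MP41 (18.6%) and 7 of 9 with IDE196 (30.7%).

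**Figure D2:**
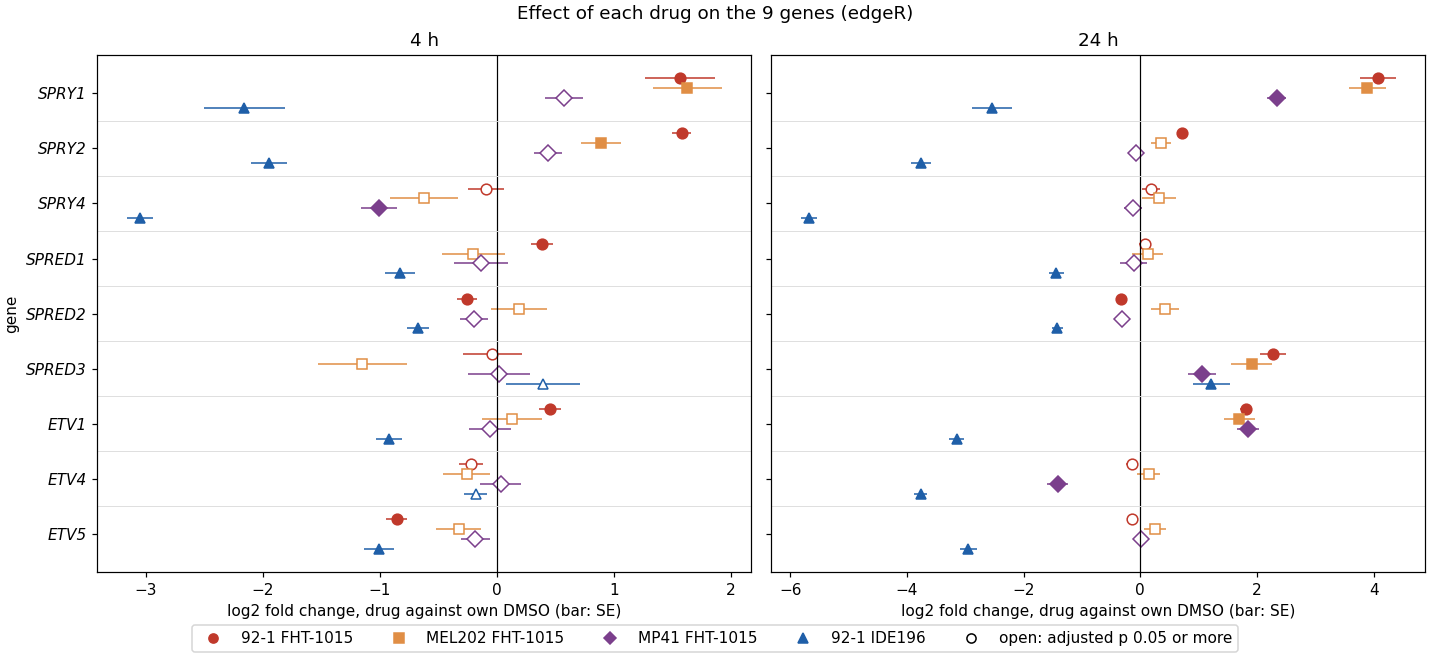
Log2 fold change of each gene against DMSO of the same experiment and time, at 4 h (left) and 24 h (right), with the standard error as a bar. Filled symbols passed an adjusted p under 0.05. IDE196 (blue) lies left of 0 for all genes but SPRED3, and SPRY1, SPRED3 and ETV1 lie right of 0 in the 3 FHT-1015 experiments at 24 h.

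SPRY1, on chromosome 4 (123396795 to 123403760), is a Sprouty inhibitor of receptor tyrosine kinase signalling and was the member that FHT-1015 raised most at 24 h in each line. In 92-1 it stood at 3.98, 5.38 and 6.33 CPM in DMSO at 4 h and at 14.5, 13.7 and 19.1 with FHT-1015. At 24 h, DMSO libraries had 2.53, 4.67 and 6.70 CPM and treated libraries 50.4, 79.3 and 103. All treated libraries lay above all DMSO libraries at both times. The gene rose 2.96-fold at 4 h (log2 1.56, SE 0.30, adjusted p = 0.0011) and 16.8-fold at 24 h (log2 4.07, SE 0.31, adjusted p = 2.0e-08). In MEL202, DMSO values of 2.80, 3.13 and 4.34 CPM at 4 h met treated values of 13.9, 6.93 and 11.4, and at 24 h 4.58, 2.56 and 4.33 met 59.9, 54.8 and 55.3. Here too no treated library reached down to DMSO. The rise was log2 1.63 at 4 h (SE 0.29, adjusted p = 0.021) and 3.89 at 24 h (SE 0.31, adjusted p = 3.8e-06). The 4 h call in MEL202 was lost in a fit of the 6 libraries alone (adjusted p = 0.403) and when any of 4 libraries was left out: DMSO replicate 1 (0.102) or 2 (0.0703), or FHT-1015 replicate 1 (0.117) or 3 (0.0838), all at 4 h.

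MP41 started from a higher SPRY1 level. DMSO libraries had 23.2, 18.8 and 16.4 CPM at 4 h and treated ones 31.9, 27.3 and 28.0, and the 4 h difference of log2 0.58 did not pass the test (SE 0.16, adjusted p = 0.25) although the groups did not overlap. At 24 h, 18.04, 16.8 and 16.2 CPM stood against 90.2, 77.4 and 80.4, a 5.06-fold rise (log2 2.34, SE 0.17, adjusted p = 4.1e-07). The treated level at 24 h had means of 77.7, 56.7 and 82.7 CPM in 92-1, MEL202 and MP41. The log2 effect at 24 h differed among the lines (adjusted p = 0.0015). That at 4 h did not pass (adjusted p = 0.30), but did with replicate number as a block (0.0481). Under IDE196 in 92-1, SPRY1 fell from 4.71, 5.36 and 6.76 CPM to 1.5, 0.539 and 1.73 at 4 h, and from 4.38, 8.52 and 9.42 to 1.63, 1.31 and 0.952 at 24 h. These are low counts, of 10 to 35 reads per treated library, all below DMSO. The gene fell by 2.16 on the log2 scale at 4 h (SE 0.35, adjusted p = 2.9e-04) and fell by 2.54 at 24 h (SE 0.34, adjusted p = 6.0e-06).

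SPRY2, on chromosome 13 (80335976 to 80340951), encodes another Sprouty protein and responded early to FHT-1015. In 92-1 the DMSO libraries had 54.0, 51.8 and 52.1 CPM at 4 h and the treated ones 161, 155 and 164. At 24 h they had 57.3, 52.0 and 53.6 against 84.0, 98.0 and 90.7. Treated libraries were above DMSO at both times, and closer to it at the later one. The rise was 2.99-fold at 4 h (log2 1.58, SE 0.077, adjusted p = 2.1e-09) and 1.65-fold at 24 h (log2 0.72, SE 0.077, adjusted p = 8.8e-07), and the drop between the times was itself called (difference of log2 -0.86, SE 0.11, adjusted p = 1.3e-05). MEL202 went from 35.5, 41.5 and 41.8 CPM to 73.4, 69.5 and 79.0 at 4 h (log2 0.89, SE 0.17, adjusted p = 0.030). That call was lost without 11 of the 12 libraries of the experiment in turn (adjusted p 0.0518 to 0.12) and stood without replicate 2 of FHT-1015 at 4 h. It was lost too without the filter on low counts (0.106) and in the 6 libraries alone (0.629).

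In MP41 at 4 h SPRY2 stood at 119, 109 and 107 CPM in DMSO and 150, 150 and 153 with FHT-1015, groups that did not overlap, with a log2 difference of 0.44 (SE 0.12) that edgeR did not call (adjusted p = 0.23) and DESeq2 did (0.017). At 24 h the effects in MEL202 and MP41 were log2 0.35 (adjusted p = 0.18) and -0.08 (0.64); the MEL202 value passed in the 6 libraries alone (0.0412) and with all 48 in one fit (0.046). The 4 h effect on SPRY2 differed among the lines (adjusted p = 8.5e-05), where 1.38% of genes did, and its 24 h effect differed as well (adjusted p = 4.8e-04, but 0.204 without the low-count filter). IDE196 moved the gene the other way. At 4 h, 38.8, 43.1 and 43.4 CPM in DMSO met 10.2, 11.04 and 11.3, and at 24 h 44.9, 41.7 and 54.0 met 3.73, 4.62 and 2.26. Treated libraries were below DMSO throughout. SPRY2 fell by 1.95 on the log2 scale at 4 h (SE 0.15, adjusted p = 1.5e-07) and fell by 3.76 at 24 h (SE 0.17, adjusted p = 2.3e-11).

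SPRY4, on chromosome 5 (142310427 to 142326455), is widely used as a readout of ERK output and showed the deepest fall of the 9 genes under IDE196. DMSO libraries had 174, 132 and 148 CPM at 4 h, against 18.4, 18.9 and 17.5 with the drug. At 24 h, 109, 129 and 121 CPM stood against 2.14, 2.78 and 2.32. Every treated library was far below every DMSO library. The fall was 8.30-fold at 4 h (log2 -3.05, SE 0.11, adjusted p = 1.2e-11) and 51.2-fold at 24 h (log2 -5.68, SE 0.14, adjusted p = 9.7e-15). FHT-1015 gave no call for SPRY4 in 92-1, where 4 h values of 106, 87.9 and 99.2 CPM in DMSO and 109, 91.7 and 78.3 with the drug overlapped (log2 -0.09, SE 0.16, adjusted p = 0.69). Nor was it called at 24 h in any line, with log2 values of 0.19 in 92-1, 0.32 in MEL202 and -0.12 in MP41. Without replicate 1 of FHT-1015 at 24 h, the 92-1 value was 0.368 and passed (adjusted p = 0.0302).

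MP41 was the line in which SPRY4 fell early. Its DMSO libraries had 169, 158 and 157 CPM at 4 h and its treated libraries 92.1, 66.8 and 82.1, with no overlap, a 2.01-fold fall (log2 -1.01, SE 0.15, adjusted p = 0.011). By 24 h the values were 178, 210 and 143 against 148, 154 and 164, which overlap, and the change of the effect with time was called (log2 difference 0.88, SE 0.21, adjusted p = 0.011). The 4 h call was lost when any of 5 libraries of that time was left out: DMSO replicate 1 (0.0848), 2 (0.0695) or 3 (0.068), or FHT-1015 replicate 2 (0.08) or 3 (0.121). In MEL202 the 4 h libraries spread widely, 147, 152 and 86.4 CPM in DMSO and 75.0, 121 and 54.6 treated, and the log2 difference of -0.62 was not called (SE 0.29, adjusted p = 0.59). The 4 h effect among lines was not called for SPRY4 (adjusted p = 0.35), so the fall in MP41 was not shown to differ from the other lines.

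**Figure D3:**
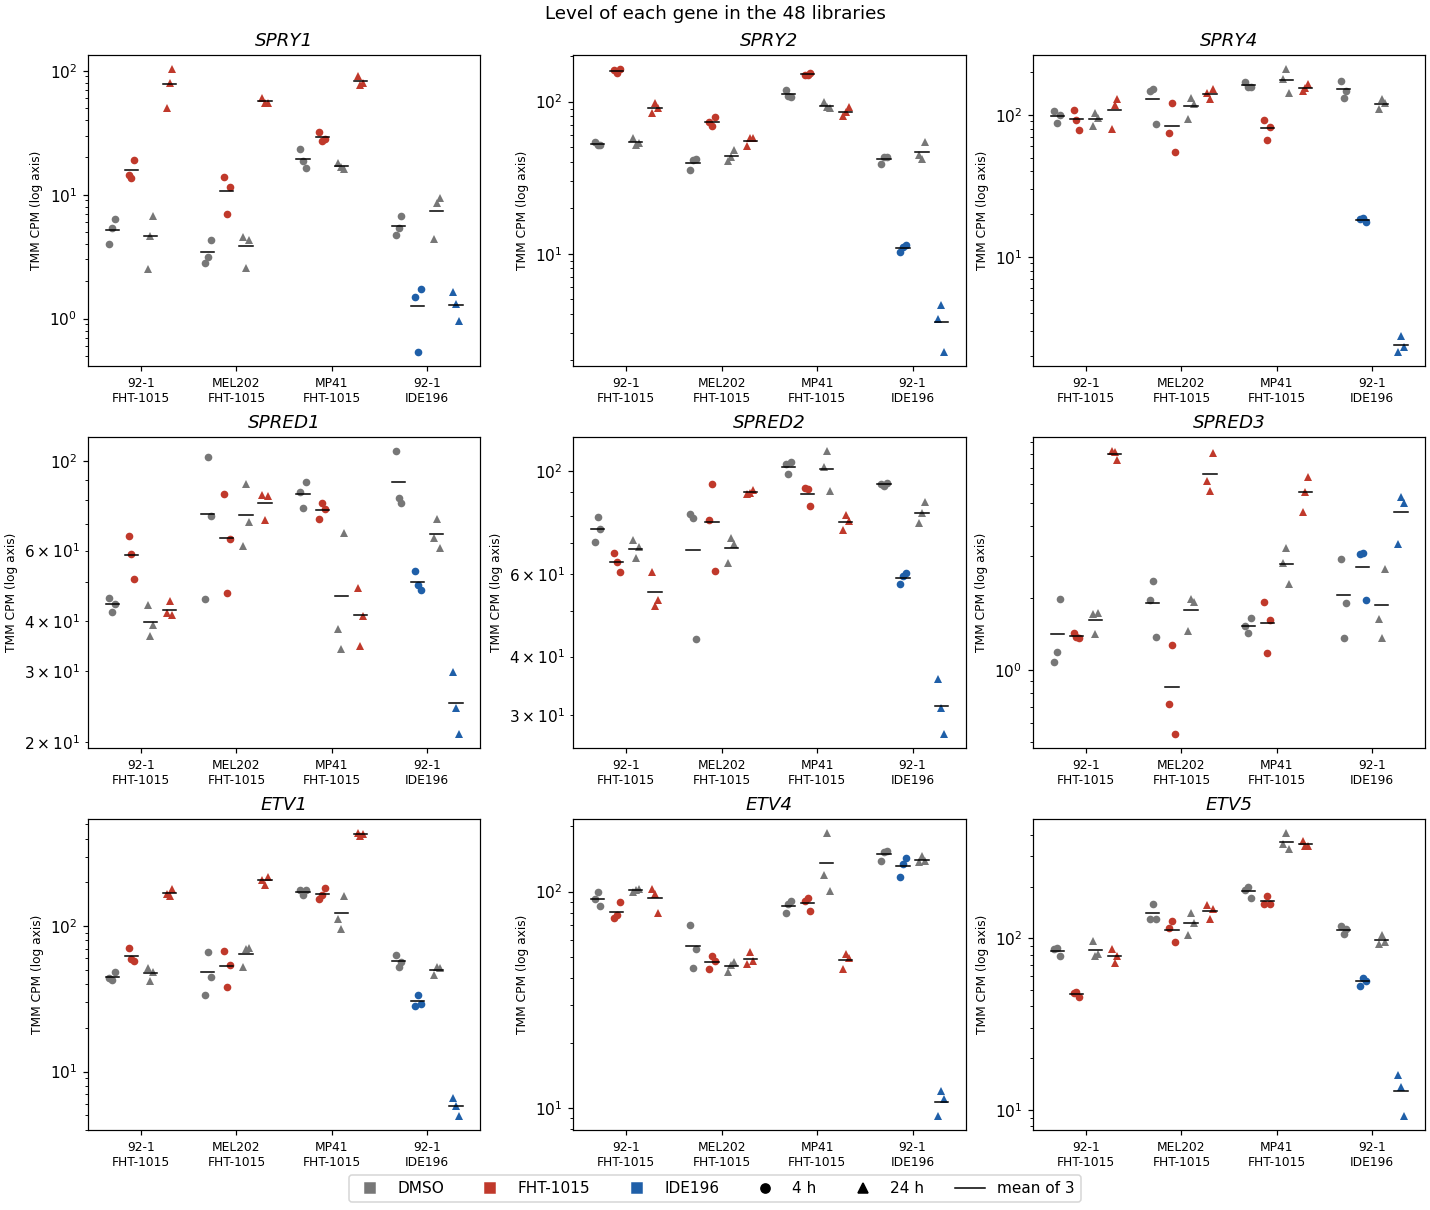
TMM-normalised CPM (log axis) of each gene in the 48 libraries, by experiment along the horizontal axis, with DMSO in grey, FHT-1015 in red, IDE196 in blue, circles for 4 h, triangles for 24 h and a line at the mean of 3. Red triangles stand above grey in every line for SPRY1, SPRED3 and ETV1, and SPRY4 under IDE196 at 24 h lies between 2.14 and 2.78 CPM.

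SPRED1 and SPRED2, the Spred genes of chromosomes 15 (38252326 to 38357249) and 2 (65310851 to 65432637), had smaller log2 falls than the Sprouty genes under IDE196, at both times. In 92-1, FHT-1015 took SPRED1 from 45.7, 42.3 and 44.1 CPM to 65.3, 58.7 and 51.1 at 4 h, a rise of log2 0.38 (SE 0.096, adjusted p = 0.0065) with no overlap between groups. At 24 h the values overlapped (log2 0.08, adjusted p = 0.50). SPRED2 went from 70.3, 79.7 and 75.1 CPM to 66.7, 63.9 and 60.7 at 4 h and from 70.9, 65.0 and 68.5 to 60.6, 51.3 and 53.0 at 24 h. All treated SPRED2 libraries were lower, by margins close to the spread between replicates. Its fall was log2 -0.26 at 4 h (SE 0.086, adjusted p = 0.034) and -0.33 at 24 h (SE 0.087, adjusted p = 0.0039). With all 48 libraries in one fit, SPRED1 at 4 h (adjusted p = 0.261), SPRED2 at 4 h (0.381) and 24 h (0.0926) were not called. The SPRED2 call at 4 h was also lost without the low-count filter (0.167) and without DMSO replicate 2 (0.143) or 3 (0.0832) or FHT-1015 replicate 2 (0.0864) or 3 (0.0857), all at 4 h.

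Neither SPRED1 nor SPRED2 was called in MEL202 or MP41. For SPRED2 at 24 h the treated libraries did not overlap DMSO in either line but lay on opposite sides: 89.2, 89.6 and 90.9 CPM against 63.4, 71.7 and 69.8 in MEL202 (log2 0.42, SE 0.24, adjusted p = 0.26, but 0.0128 with the 6 libraries alone and 0.0322 with all 48 in one fit), and 74.8, 80.3 and 78.2 against 102, 110 and 90.7 in MP41 (log2 -0.31, SE 0.12, adjusted p = 0.056). In MP41 that difference passed with DESeq2 (adjusted p = 0.0196), with RLE scaling and with limma-voom (0.0483 each), with all 48 libraries (0.0396) and without FHT-1015 replicate 1 at 4 h (0.04). The 24 h effect on SPRED2 differed among the 3 lines (adjusted p = 0.022), a call lost without the low-count filter (0.125), or without MEL202 DMSO replicate 1 (0.0702) or FHT-1015 replicate 3 (0.0503) at 24 h. In MP41 at 24 h, DMSO replicate 3 stood apart for SPRED1, at 66.2 CPM beside 38.3 and 34.1, and without it the SPRED1 value changed sign from -0.11 to 0.21 (adjusted p = 0.281) and SPRED2 was called (log2 -0.426, adjusted p = 0.011). IDE196 lowered both genes at both times. SPRED1 fell from 106, 81.2 and 79.0 CPM to 53.3, 49.1 and 47.9 at 4 h and from 64.4, 72.0 and 61.0 to 29.9, 24.3 and 20.9 at 24 h, with log2 fold changes of -0.83 (SE 0.13) and -1.44 (SE 0.13). SPRED2, with log2 fold changes of -0.67 (SE 0.092) and -1.42 (SE 0.095), went from 92.9 to 94.4 CPM in DMSO to 57.1 to 60.5 at 4 h and from 77.3 to 85.6 to 27.3 to 35.7 at 24 h. The adjusted p of these 4 falls lay between 1.4e-09 and 1.7e-04, and no treated library overlapped DMSO.

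SPRED3, on chromosome 19 (38388421 to 38399587), is the least expressed Spred gene here and was the one member that rose under IDE196 at 24 h. With FHT-1015 at 24 h it reached 8.22, 8.14 and 7.54 CPM in 92-1 against 1.72, 1.41 and 1.72 in DMSO. MEL202 had 6.15, 5.62 and 8.05 CPM against 1.45, 1.98 and 1.93, and MP41 4.59, 5.56 and 6.42 against 2.79, 3.25 and 2.29. Treated libraries were above DMSO in the 3 lines. The rise was 4.83-fold in 92-1 (log2 2.27, SE 0.22, adjusted p = 3.2e-07), 3.75-fold in MEL202 (log2 1.91, SE 0.36, adjusted p = 0.0021) and 2.09-fold in MP41 (log2 1.06, SE 0.24, adjusted p = 0.0034). No 4 h effect of FHT-1015 on SPRED3 was called, and a difference among lines at 4 h passed only without MEL202 FHT-1015 replicate 2 of that time (adjusted p = 0.0483). In MEL202 at 4 h, 10 to 29 reads per treated library gave 0.719, 1.27 and 0.537 CPM against 1.96, 2.36 and 1.37 in DMSO, lower in every library (log2 -1.15, SE 0.38, adjusted p = 0.28), and with all 48 libraries in one fit this was called (adjusted p = 0.0295). The 24 h effect differed among lines at an adjusted p of 0.039, a call that ended when any of 12 of the 36 libraries, all at 24 h, was left out (0.0511 to 0.111) and without the low-count filter (0.352). IDE196 raised SPRED3 at 24 h, from 1.63, 1.36 and 2.63 CPM to 3.36, 5.31 and 5.00, with no overlap (2.33-fold, log2 1.22, SE 0.31, adjusted p = 0.0028). At 4 h, 3.04, 3.07 and 1.96 CPM overlapped the DMSO values of 2.90, 1.36 and 1.90 (log2 0.40, adjusted p = 0.47).

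ETV1, on chromosome 7 (13891228 to 13991425), an ETS activator that acts with MITF in melanocytic cells, rose with FHT-1015 in every line at 24 h. In 92-1 the libraries had 51.6, 42.1 and 48.5 CPM in DMSO and 165, 160 and 180 treated. MEL202 had 52.6, 69.8 and 70.5 against 207, 193 and 218, and MP41 111, 95.4 and 161 against 434, 418 and 429. No treated library overlapped DMSO. The rises were 3.50-fold (log2 1.81, SE 0.099, adjusted p = 5.2e-10), 3.25-fold (log2 1.70, SE 0.26, adjusted p = 5.2e-04) and 3.61-fold (log2 1.85, SE 0.19, adjusted p = 7.2e-06) in that order. A difference among the lines was not called (adjusted p = 0.93). MP41 DMSO replicate 3 stood above the other 2 here as for SPRED1. At 4 h ETV1 was called only in 92-1, from 43.7, 42.7 and 48.6 CPM to 70.5, 59.8 and 57.4 (log2 0.45, SE 0.097, adjusted p = 0.0024), and this call was lost with all 48 libraries in one fit (0.0896). The effect grew with time in each line, by log2 1.35 in 92-1, 1.57 in MEL202 and 1.91 in MP41. In MEL202 that call was lost without DMSO replicate 1 (adjusted p = 0.0573) or FHT-1015 replicate 1 (0.0526) or 3 (0.0638) at 24 h. In MP41 the DMSO level of ETV1 was itself lower at 24 h than at 4 h (log2 -0.56, SE 0.18, adjusted p = 0.091). Under IDE196 ETV1 fell from 63.1, 52.0 and 56.7 CPM to 28.4, 33.4 and 29.3 at 4 h and from 45.9, 52.2 and 51.5 to 6.62, 5.78 and 4.94 at 24 h. The log2 fold changes of -0.92 (SE 0.11, adjusted p = 1.5e-05) and -3.15 (SE 0.13, adjusted p = 5.2e-12) left no overlap with DMSO.

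Of the genes that fell under IDE196 at 24 h, only ETV4 was not called at 4 h. At 4 h, 117, 134 and 143 CPM in treated libraries overlapped the 139, 153 and 153 of DMSO (log2 -0.18, SE 0.097, adjusted p = 0.24). At 24 h 9.18, 11.98 and 11.01 CPM stood against 138, 146 and 138, with a wide gap between the groups. The fall was 13.6-fold (log2 -3.77, SE 0.11, adjusted p = 1.7e-13), and the change of effect between the times, log2 -3.58 (SE 0.15), was the largest of the 9 genes in that experiment. FHT-1015 gave no ETV4 call in 92-1 or MEL202, with log2 values between -0.26 and 0.14; without FHT-1015 replicate 3 at 4 h, the 92-1 value at that time was -0.306 and passed (adjusted p = 0.0451). In MP41 at 24 h ETV4 fell 2.67-fold, from 120, 186 and 101 CPM to 43.8, 51.5 and 49.2 (log2 -1.42, SE 0.18, adjusted p = 4.8e-05), although DMSO replicate 2 was itself high. The 24 h effect on ETV4 differed among the lines (adjusted p = 1.1e-05). ETV4 shares 68 exon bases with DHX8 on the opposite strand, and counting by strand gave 1.202 times as many ETV4 reads in total. The calls for ETV4 named here were kept with that count.

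ETV5 fell early in 92-1 with both drugs. FHT-1015 at 4 h took it from 86.8, 87.7 and 79.0 CPM to 47.7, 48.8 and 45.7, clear of DMSO (1.81-fold lower, log2 -0.86, SE 0.092, adjusted p = 4.2e-06). At 24 h the groups overlapped, at 95.9, 79.0 and 80.9 CPM against 86.1, 71.7 and 78.4 (log2 -0.13, adjusted p = 0.21), and the difference between the times was called (log2 0.72, SE 0.13, adjusted p = 3.0e-04). In MEL202 the 4 h libraries with FHT-1015 had 115, 126 and 94.3 CPM, all below the 129, 159 and 130 of DMSO, but the log2 value of -0.33 was not called (SE 0.19, adjusted p = 0.72). MP41 gave log2 -0.18 at 4 h (adjusted p = 1.0) and 0.01 at 24 h (0.94). A difference among the lines at 4 h passed with DESeq2 (adjusted p = 0.0374) and not with edgeR. IDE196 took ETV5 from 117, 106 and 113 CPM to 52.9, 58.5 and 56.5 at 4 h and from 91.8, 104 and 95.3 to 16.0, 13.6 and 9.16 at 24 h. Both falls, 2.01-fold at 4 h (log2 -1.01, SE 0.13, adjusted p = 2.5e-05) and 7.70-fold at 24 h (log2 -2.94, SE 0.14, adjusted p = 3.1e-11), left no overlap. ETV5 shares 164 exon bases with DGKG on the same strand.

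The 2 drugs were compared directly in 92-1, in a fit of 24 libraries. The difference is the IDE196 effect minus the FHT-1015 effect, each against its own DMSO. The drugs were given in separate experiments, so drug and experiment cannot be told apart here. At 4 h the difference was called for 6 of the 9 genes, all lower with IDE196, where 24.6% of genes were called and 10.7% in that direction. The largest were SPRY1 (log2 -3.72, SE 0.50), SPRY2 (-3.53, SE 0.17) and SPRY4 (-2.96, SE 0.20), followed by ETV1 (-1.37), SPRED1 (-1.21) and SPRED2 (-0.41). The SPRED2 difference was not called without DMSO replicate 1 of the FHT-1015 experiment at 4 h (adjusted p = 0.0509), without the low-count filter (0.0768) or with all 48 libraries in one fit (0.222). ETV4 (log2 0.05, SE 0.14, adjusted p = 0.87), ETV5 (-0.15, SE 0.16, 0.58) and SPRED3 (0.44, SE 0.42, 0.52) were not called, which does not show equal effects. At 24 h all 9 differences were called and negative, where 33.0% of genes were called and 15.9% in that direction. They ran from -1.05 for SPRED3 (SE 0.39, adjusted p = 0.040) to -6.60 for SPRY1 (SE 0.49, adjusted p = 2.2e-11). The SPRED3 call ended without the low-count filter (0.0513), with all 48 libraries in one fit (0.0875) and when any of 7 libraries was left out (0.0507 to 0.176).

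Opposite calls by the 2 drugs were frequent among the members. At 4 h SPRY1, SPRY2, SPRED1 and ETV1 rose with FHT-1015 and fell with IDE196, as did 2.07% of the 14700 genes tested in both experiments. At 24 h SPRY1, SPRY2 and ETV1 did so, against 2.46% of genes. SPRED2 and ETV5 fell with both drugs at 4 h, as did 2.28% of genes, and SPRED2 at 24 h, as did 20.1%. SPRED3 rose with both at 24 h, as did 15.7% of genes. SPRY4, SPRED1, ETV4 and ETV5 fell with IDE196 at 24 h and were not called with FHT-1015 in 92-1 at that time.

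**Figure D4:**
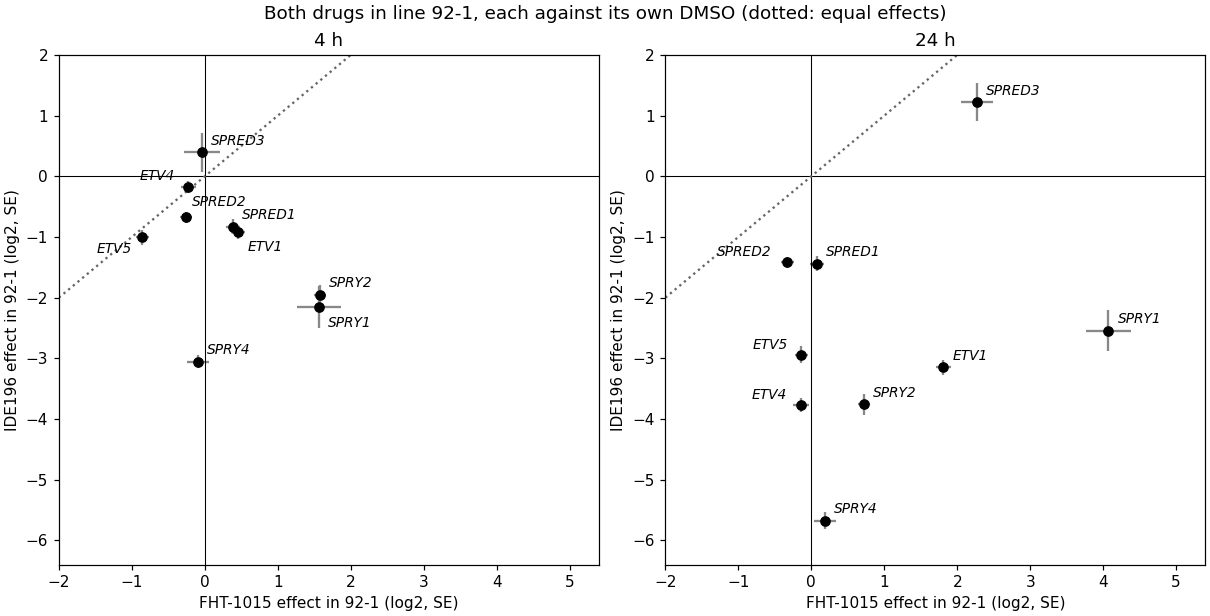
IDE196 effect (vertical) against FHT-1015 effect (horizontal) in 92-1, as log2 fold changes with standard errors, at 4 h (left) and 24 h (right), each drug against its own DMSO. At 24 h SPRY1, SPRY2 and ETV1 lie to the right of 0 and below it, SPRY4 and ETV4 lie near 0 for FHT-1015 and at -5.68 and -3.77 for IDE196, and SPRED3 is the gene above 0.

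Across the 48 libraries, with each gene's log2(CPM + 1) taken relative to the mean of its own DMSO group, SPRY4 and ETV5 varied most alike of the member pairs (Pearson r = 0.917), then SPRY1 and ETV1 (0.868) and SPRED2 and ETV5 (0.864). SPRED3 had negative values with 6 of the other 8 genes, the lowest with ETV4 (-0.307). These values describe libraries that share experiments and drugs. Among 10218 other protein-coding genes, the gene most like SPRY2 and that most like SPRY4 over the same 48 libraries were the nuclear receptor genes NR4A3 (0.954) and NR4A1 (0.917), in that order. IQGAP2 (0.948), RPS6KA3 (0.940) and the ERK phosphatase gene DUSP6 (0.911) were most like ETV1. The leading gene was TGFB3 for SPRY1 (0.931), SEMA6C for SPRED3 (0.919), RAPGEF4 for ETV5 (0.923), ODC1 for ETV4 (0.922), NCS1 for SPRED2 (0.895) and FUBP1 for SPRED1 (0.859).

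The calls in the lists below stand beside those of all genes tested at 24 h, 60.6% in 92-1, 18.8% in MEL202 and 36.1% in MP41 with FHT-1015 and 58.1% with IDE196, and 16.2% at 4 h of IDE196. Other transcriptional outputs of ERK, a list of 10 genes, were called lower in 9 of 10 at 4 h and 10 of 10 at 24 h of IDE196, with median log2 values of -1.47 and -2.19. With FHT-1015 at 24 h, 5 of 9 tested were lower and 2 higher in 92-1 (median -0.95), 4 of 10 were lower in MEL202 (-0.87) and 6 of 9 lower and 1 higher in MP41 (-1.32). In these lines at the same time SPRY1, SPRED3 and ETV1 rose. The list genes named next do not include those counted as higher. DUSP6, given above as like ETV1 (r = 0.911), also belongs to this list. DUSP4, an ERK phosphatase gene, fell at 24 h of FHT-1015 in 92-1 (log2 -2.64), MEL202 (-2.23) and MP41 (-3.53), and at 24 h of IDE196 (-1.38). CCND1, encoding cyclin D1, fell in the same 4 comparisons, at -1.86, -3.43, -2.27 and -1.42 in that order. The Eph receptor gene EPHA2 fell in them too, at -0.95, -2.34, -1.70 and -2.56. PHLDA1 fell at 24 h in 92-1 (-2.55), in MEL202 (-2.38) and with IDE196 (-0.92). In 92-1 it was higher at 4 h of FHT-1015 (0.47, edgeR adjusted p = 5.3e-04). In MP41 at 24 h PHLDA1 was at 0.06 (not called). Treated libraries there had 149, 121 and 159 CPM against 91.7, 78.8 and 251 in DMSO, replicate 3 again the highest.

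Other feedback antagonists, a list of 5 genes, gave 5 calls at 24 h of FHT-1015 in 92-1 (4 higher, 1 lower), 1 in MEL202, 1 in MP41 and 2 with IDE196, and in the last 2 the share was below that of all genes. IL17RD (Sef), an inhibitor of ERK signalling at the receptor and MEK level, rose at 24 h in the 4 experiments, by log2 1.25 in 92-1, 2.12 in MEL202 and 1.15 in MP41 with FHT-1015 and by 1.23 with IDE196. LRIG1, which limits receptor tyrosine kinases, rose by 1.504 at 24 h in 92-1 with FHT-1015 after a value of -1.32 at 4 h, both called. Among 7 binding partners of Sprouty and Spred proteins, 6 were called in 92-1 at 24 h with each drug (2 higher and 4 lower each time), 0 of 7 in MEL202 (0 also at an unadjusted p under 0.05 in edgeR, and 0 with DESeq2), and 2 in MP41, both higher; the shares in MEL202 and MP41 were below those of all genes. SOS1, the RAS exchange factor, fell in 92-1 at 24 h with FHT-1015 (-0.87) and with IDE196 (-0.82), and rose by 1.21 in MP41. CAV1, a caveolin that binds Sprouty proteins, fell by 0.98 with FHT-1015 and rose by 1.82 with IDE196 in 92-1, and it rose by 0.62 with FHT-1015 in MP41 (adjusted p = 0.0050, but 0.0663 in the 6 libraries alone), all at 24 h.

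Of 12 genes of the RAS to ERK cascade itself, 8 were called at 24 h of IDE196, a share near that of all genes. Of these, 5 were higher and 3 lower, and the median over the list was 0.14. At 4 h of IDE196, 0 were called (1 with DESeq2), beside 16.2% of all genes. At 24 h of FHT-1015, 7 were called in 92-1 (5 higher), 2 in MEL202 (2 higher) and 5 in MP41 (4 higher). Over all genes the shares were 60.6%, 18.8% and 36.1% in that order. Of 5 regulators of PEA3 factors, ATXN1, a partner of CIC, rose at 24 h of FHT-1015 by 3.16, 2.61 and 2.22 in 92-1, MEL202 and MP41. The list's calls at that time were 2 of 5 in 92-1, 1 of 5 in MEL202 and 1 of 4 in MP41. CIC itself was not called in any FHT-1015 comparison. It rose by 0.30 at 4 h of IDE196 (adjusted p = 0.030), a call lost in the 6 libraries alone (0.084), with all 48 in one fit (0.707) and without DMSO replicate 5 (0.121) or 6 (0.148) or IDE196 replicate 1 (0.176) or 3 (0.0664) at 4 h. Of 11 other ETS genes, 10 were tested in 92-1 and MEL202 and 9 in MP41. At 24 h of FHT-1015, 3 rose and 5 fell in 92-1, 3 fell in MEL202, and 1 rose and 2 fell in MP41. GABPA was among the rises in 92-1 (log2 0.30, adjusted p = 0.031) and was the one in MP41 (1.39, adjusted p = 0.015). In 92-1 it was called lower with the stranded columns summed (-0.188, adjusted p = 0.0426) and not called with all 48 libraries in one fit (0.503), without the low-count filter (0.0528) or without DMSO replicate 2 (0.153) or 3 (0.108) or FHT-1015 replicate 1 (0.0676) or 3 (0.0718) at 24 h. In MP41 the call was lost in the 6 libraries alone (0.0734) and without DMSO replicate 1 at 24 h (0.0592). Like the other list genes named, GABPA was picked by its number of calls in these same data. ETS1 fell at 24 h of FHT-1015 in 92-1, MEL202 and MP41, at -3.61, -2.22 and -2.23. ETS2 fell there too, at -2.91, -1.29 and -2.44, while ETV1 rose in the same libraries. In 92-1, ETS1 was higher at 4 h of FHT-1015 (0.43) and at 24 h of IDE196 (0.34), with an edgeR adjusted p of 0.012 each. With IDE196 at 24 h, 3 of the 10 tested rose and 5 fell, where 58.1% of all genes were called. ELK3 rose by 1.02 in 92-1 with FHT-1015 and fell by 0.89 with IDE196 at 24 h.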

How the data were processed

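The deposited values are raw read counts per gene, 1 table per library, in the layout of STAR's gene counts, per the file headers. The authors' notes name the build hg38 and the tool limma, per the submitters' processing notes; the aligner's settings and the annotation are not given in the sources used here. The unstranded count column was used, since 49.7% to 50.1% of stranded reads fell on the first strand. Reads that overlapped more than 1 gene were not counted for any gene. They were 10.3% to 12.9% of these reads and the reads in genes together. Of 58870 genes, 58552 matched GENCODE 29, which gave symbols, exon lengths and coordinates on GRCh38; 92 spike-ins had no reads. The summary rows of the tables stayed out of library sizes and tests.

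CPM values were computed here with TMM factors over the 48 libraries. Each experiment was fitted with edgeR 4.0.16 (R 4.3.3): TMM, filterByExpr, quasi-likelihood F-tests in 4 groups, each drug against DMSO of its own time. Benjamini-Hochberg adjustment ran over all genes tested (15437 to 15913 per experiment), with calls at an adjusted p under 0.05. Joint fits covered the 3 lines (36 libraries) and the 2 drugs in 92-1 (24 libraries). Standard errors were taken as |log2 fold change| over √F. The fits were tested on simulated data. Alternatives were RLE scaling, no low-count filter, DESeq2 1.42.0, limma-voom (limma 3.58.1), the sum of the stranded columns, only the samples compared, all 48 libraries in one fit, a replicate block, and leaving out each library in turn.

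The members and the gene lists were chosen with earlier results of these data known. All 9 members are named; from each list the text names up to 4 genes, those called in the most of the 8 drug comparisons, and for likeness the genes with the highest Pearson r. One gene of the cascade list is not reported here. No library pair held identical values.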

Additional observations from a re-analysis of the deposited data

Results flagged for a closer look

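The effect of a drug differed between 24 h and 4 h, by a test of the difference itself (edgeR, adjusted p under 0.05), for the following genes, given as the log2 effect at 24 h minus that at 4 h. With FHT-1015 in 92-1 the differences were 2.5 for SPRY1, -0.86 for SPRY2, 2.31 for SPRED3, 1.35 for ETV1 and 0.72 for ETV5. In MEL202 they were 2.26 for SPRY1, 3.06 for SPRED3 and 1.57 for ETV1; the ETV1 call was lost without DMSO replicate 1 (adjusted p = 0.0573) or FHT-1015 replicate 1 (0.0526) or 3 (0.0638) at 24 h. In MP41 they were 1.76 for SPRY1, -0.51 for SPRY2, 0.88 for SPRY4, 1.91 for ETV1 and -1.45 for ETV4; the SPRY2 call (0.0485) was lost without 10 of the 12 libraries in turn (0.0602 to 0.129), without the low-count filter (0.268) and with the stranded columns summed (0.0543). With IDE196 in 92-1 all 7 were negative, at -1.81 for SPRY2, -2.62 for SPRY4, -0.61 for SPRED1, -0.75 for SPRED2, -2.23 for ETV1, -3.58 for ETV4 and -1.94 for ETV5. The SPRED1 call with IDE196 was lost without DMSO replicate 6 at 4 h (0.0616) and with all 48 libraries in one fit (0.25). The MP41 DMSO libraries themselves differed at 24 h against 4 h, by log2 -0.56 for ETV1 and 0.56 for ETV4. Neither was called (edgeR adjusted p = 0.091 and 0.086).

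The effect of FHT-1015 differed among the 3 lines, by an F-test over 36 libraries. At 4 h this held for SPRY2 (adjusted p = 8.5e-05), whose log2 effects were 1.58 in 92-1, 0.89 in MEL202 and 0.44 in MP41. At 24 h it held for SPRY1 (0.00146), SPRY2 (0.000478), SPRED2 (0.0222), SPRED3 (0.0394) and ETV4 (1.13e-05). Without the low-count filter, SPRY2 (0.204), SPRED2 (0.125) and SPRED3 (0.352) were lost. SPRED2 was also lost without MEL202 DMSO replicate 1 (0.0702) or FHT-1015 replicate 3 (0.0503) at 24 h, and SPRED3 without any 1 of 12 of the 36 libraries (0.0511 to 0.111). The lines were treated in separate experiments, so line and experiment cannot be told apart.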

How the results depend on the processing

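The 24 h calls of SPRY1, SPRED3 and ETV1 with FHT-1015 in each line, and all 16 calls of IDE196 against DMSO, were kept under every alternative run. RLE scaling changed 1 count of members called, from 4 to 5 (MP41, 24 h, where SPRED2 was added). The counts that moved by over 1.5 times were these. With all 48 libraries in one fit, members called went from 6 to 3 (92-1, FHT-1015, 4 h), from 3 to 5 (MEL202, 24 h), from 3 to 6 (time difference in MEL202) and from 1 to 4 (DMSO over time in MP41). With only the samples compared, they were 0 (MEL202, 4 h), 5 (MEL202, 24 h), 2 (MP41, 4 h) and 0 (MP41 DMSO over time). Without the low-count filter, they were 1 (MEL202, 4 h), 4 (MP41 DMSO over time), 1 (IDE196 DMSO over time) and 2 (among lines, 24 h). DESeq2 gave 2 (MP41, 4 h), 5 (MP41 DMSO over time) and 2 (among lines, 4 h), and limma-voom 2 (MP41 DMSO over time). Leaving out 1 library gave 0 to 2 (MEL202, 4 h), 0 to 1 (MP41, 4 h), 0 to 5 (MP41 DMSO over time), 1 to 2 (among lines, 4 h) and 3 to 5 (among lines, 24 h). Signs changed only for values that were not called, apart from GABPA, another ETS gene, at -0.188 (92-1, FHT-1015) and -0.306 (IDE196) at 24 h with the stranded columns summed. SPRED3 at 4 h became 0.014 (92-1) and -0.021 (MP41) with limma-voom and -0.048 (MP41) with the stranded columns. ETV5 in MP41 at 24 h became -0.047 with only the samples compared and -0.049 with all 48 libraries, which also took the SPRED1 time difference in MP41 to -0.025. Without 1 library, other uncalled values also crossed 0. At 4 h of FHT-1015 these were SPRY4 (-0.221 to 0.01) and SPRED3 (-0.198 to 0.265) in 92-1, SPRED1 (-0.447 to 0.081), SPRED2 (-0.037 to 0.355) and ETV1 (-0.067 to 0.4) in MEL202, and SPRED3 (-0.128 to 0.184) and ETV4 (-0.018 to 0.114) in MP41. In MP41 at 24 h they were SPRED1 (-0.323 to 0.21) and ETV5 (-0.095 to 0.057), with the SPRED1 time difference (-0.187 to 0.335), and between the drugs at 4 h ETV4 (-0.019 to 0.127). The cause of these changes was not tested. Replicate numbers were not taken as pairing the libraries, since 3 of 18 pairs correlated over 0.1 (range -0.258 to 0.423). In 12 of the 18, and in all 6 of MP41, the treated library correlated best with the DMSO library of its own number, a hint from the data and not the design. With a replicate block, members called were 1 (MEL202, 4 h), 2 (MP41 DMSO over time) and 2 (among lines, 4 h); SPRY2 in MEL202 at 4 h was lost (adjusted p = 0.0565), as were the SPRY2 time difference in MP41 (0.0636) and SPRED3 among lines at 24 h (0.0523), and SPRY1 among lines at 4 h was gained (0.0481). No block was fitted for IDE196, whose DMSO libraries carry other numbers. SPRY1 under IDE196 and SPRED3 with FHT-1015 in MEL202 at 4 h rest on as few as 10 reads.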
